A study of Mus musculus with 12 samples.

Results

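The data described here are 4 microarrays of the amygdala of home-cage mice, labelled HC 1 to HC 4 and chosen by those titles alone, out of 12 arrays in the series. They were taken without a contrast, so everything below is a level in unconditioned animals and no group was compared with another. Per the labels the mice were male C57Bl/6J aged 10 weeks with no allele or agent named, and the tissue was bilateral amygdala taken with 1 mm punches. The other 8 arrays, 4 from fear-conditioned mice (FC, tissue collected 2 h later) and 4 from mice that were also immobilized beforehand (IMO_FC), serve below only as a check of the arrays. The labels give the 4 home-cage arrays separate sample records and do not say whether each holds tissue of a separate mouse or of pooled mice. The spread between arrays therefore cannot be read as spread between mice, and its sources, technical ones included, were not tested.

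The amygdala is a group of nuclei in the temporal lobe that assigns threat or reward value to sensory cues. Its basolateral part is cortex-like, with glutamatergic projection neurons and local GABAergic interneurons, and it signals to the central amygdala, a striatum-like output station built mainly of GABAergic neurons that also store neuropeptides. Between them lie the intercalated cells, small clusters of inhibitory neurons, and the medial amygdala handles olfactory and social cues. Neuropeptides are made as precursor proteins, cut and amidated in dense-core vesicles, and act slowly through G protein-coupled receptors on neighbouring or distant cells. A punch takes all these nuclei together with glia, vessels and whatever lies at its edge, and in such bulk tissue fewer cells of a type and less RNA per cell cannot be told apart.

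Each array gave a fluorescence signal and a detection p-value for 45281 probes, and a probe was counted as expressed where its detection p was under 0.01 on all 4 arrays. This held for 15337 probes, or 33.9% of all. A gene was represented by its brightest probe, which left 8515 of 19057 named genes expressed, or 44.7%, and this share is the background against which each list of genes below is read. Of 5344 expressed genes with several probes, every probe was expressed in 1703, so many calls below rest on some of a gene's probes. The 44 lists hold 499 genes, of which 450 had a named probe and 259 were expressed, or 57.6%, and the 49 without a named probe were not analysed here. Strength is given as a percentile, the rank of the probe's signal among all probes of its array, as mean ± SD over the 4 arrays (n = 4 throughout). The median percentile was 59.2 over all genes, 84.8 over expressed genes and 34.98 over the others. Probes differ in how well they bind, so a percentile ranks probes and does not order genes by their number of transcripts. For the same reason, a probe that was not detected does not show that its gene is silent.

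The 4 arrays were alike. Between 40.3% and 44.3% of probes were detected on each, the rank correlation between pairs of arrays was 0.858 to 0.909 over all probes, and detection p reached its threshold between the percentiles of 55.7 and 59.7. HC 1 was dimmer throughout, with a median signal of 43.5 against 69.8 to 76.5 on the other arrays, so signals are compared between arrays by their percentile or after normalization. Of the probes expressed in home-cage amygdala, 6 of the other 8 arrays detected between 79.5% and 98.7%, and FC 1 and FC 3 detected 17.8% and 27.8%. No value below uses those arrays.

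Among neuropeptides the strongest signal came from Pdyn, the precursor of the dynorphins, at percentile 99.0 ± 0.503. Its signals were 2023, 1851, 2181 and 2723 on HC 1 to HC 4. Sst, the precursor of somatostatin, which marks inhibitory neurons of the basolateral and central amygdala, followed at 96.4 ± 0.752 with signals of 800, 1435, 999 and 1058. Cck, the precursor of cholecystokinin, stood at 96.1 ± 1.45 with 915, 1355, 1076 and 744. Nts, the precursor of neurotensin, stood at 94.0 ± 0.966 with 519, 800, 683 and 884. All 4 precursors kept their high rank on every array. The start regions of these genes, 250 bases before to 50 after the annotated start, are printed because the density of CG dinucleotides in them was compared with expression further below. Tac1 is shown as the precursor with the highest ratio of observed to expected CG content, and Hcrt as one that was detected on 0 arrays. Sequences are from RefSeq on GRCm38.p6, written 5′ to 3′ on the strand of the gene, with every CG dinucleotide in capitals. Pdyn lies at chr2:129699889-129700188 on the minus strand, Sst at chr16:23890795-23891094 on the minus strand, Cck at chr9:121495645-121495944 on the minus strand, Nts at chr10:102490369-102490668 on the minus strand, Tac1 at chr6:7554811-7555110 on the plus strand and Hcrt at chr11:100762882-100763181 on the minus strand.
Pdyn: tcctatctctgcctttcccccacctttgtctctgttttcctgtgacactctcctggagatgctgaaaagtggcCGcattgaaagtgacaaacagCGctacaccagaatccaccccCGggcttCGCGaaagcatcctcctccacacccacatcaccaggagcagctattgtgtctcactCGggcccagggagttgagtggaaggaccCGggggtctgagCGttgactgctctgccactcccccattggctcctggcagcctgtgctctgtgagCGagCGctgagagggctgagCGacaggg
Sst: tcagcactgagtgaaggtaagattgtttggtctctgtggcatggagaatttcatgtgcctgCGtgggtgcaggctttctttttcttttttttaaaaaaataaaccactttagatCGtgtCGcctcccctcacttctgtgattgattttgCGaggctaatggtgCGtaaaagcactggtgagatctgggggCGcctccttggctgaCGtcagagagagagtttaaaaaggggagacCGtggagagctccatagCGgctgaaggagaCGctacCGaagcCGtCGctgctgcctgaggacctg
Cck: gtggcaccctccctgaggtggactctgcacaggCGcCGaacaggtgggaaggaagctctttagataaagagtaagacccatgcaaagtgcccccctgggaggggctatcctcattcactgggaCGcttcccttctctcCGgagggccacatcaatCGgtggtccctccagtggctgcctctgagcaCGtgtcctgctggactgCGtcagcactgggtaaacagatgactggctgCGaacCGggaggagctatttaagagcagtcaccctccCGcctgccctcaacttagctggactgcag
Nts: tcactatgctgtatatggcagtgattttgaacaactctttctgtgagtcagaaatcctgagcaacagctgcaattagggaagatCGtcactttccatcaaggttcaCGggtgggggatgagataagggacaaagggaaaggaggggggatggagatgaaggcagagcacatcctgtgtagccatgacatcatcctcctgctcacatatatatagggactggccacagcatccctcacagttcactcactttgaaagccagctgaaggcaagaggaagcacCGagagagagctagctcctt
Tac1: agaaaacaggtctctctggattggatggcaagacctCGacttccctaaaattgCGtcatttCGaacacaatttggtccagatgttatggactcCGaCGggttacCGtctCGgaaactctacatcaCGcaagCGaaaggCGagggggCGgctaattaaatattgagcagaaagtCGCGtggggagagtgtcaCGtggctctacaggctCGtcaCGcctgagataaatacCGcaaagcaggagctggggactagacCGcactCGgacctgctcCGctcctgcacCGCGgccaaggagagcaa
Hcrt: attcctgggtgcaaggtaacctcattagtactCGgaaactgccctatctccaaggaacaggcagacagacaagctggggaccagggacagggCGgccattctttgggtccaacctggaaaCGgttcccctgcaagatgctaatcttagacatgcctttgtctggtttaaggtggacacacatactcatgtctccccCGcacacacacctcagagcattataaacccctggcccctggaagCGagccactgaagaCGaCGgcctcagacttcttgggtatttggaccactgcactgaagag
The 6 regions held 11, 13, 10, 3, 22 and 7 CG dinucleotides in the order printed. The ratio of observed to expected CG content was 0.425 for Pdyn, 0.707 for Sst, 0.379 for Cck, 0.169 for Nts, 1.01 for Tac1 and 0.33 for Hcrt. Of these, Sst holds the letters TGACGTCA, the palindromic cyclic AMP response element, from 48 bases before the start, and Hcrt holds TATAAA from 33 bases before it.

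Of 33 precursor genes with a named probe, 15 were expressed, or 45.5%, close to the background of 44.7%, and the members ranged from percentile 12.7 to 99.0. Penk, the enkephalin precursor, reached 89.7 ± 6.93 with signals of 368, 221, 791 and 732. Its HC 2 signal was the lowest although HC 2 was not a dim array. Pomc, the precursor of beta-endorphin and melanocortins, had a percentile of 86.1 ± 2.29, and Apln, which encodes apelin, 84.6 ± 5.88. Npy, neuropeptide Y, had 83.4 ± 2.88 and Adcyap1, which encodes the stress peptide PACAP, had 82.6 ± 4.35. Cartpt, the CART precursor, varied more, with signals of 134, 734, 127 and 205 and a percentile of 80.3 ± 10.1, and HC 2 alone was high. Pnoc, the precursor of nociceptin, stood at 76.5 ± 4.34 with 151, 186, 196 and 125. The remaining expressed precursors were Vip at 74.4 ± 10.2, Tac1, which encodes substance P, at 73.5 ± 1.08, Oxt, which encodes oxytocin, at 63.4 ± 2.59 and Cort, the somatostatin-related cortistatin, at 62.7 ± 4.27. Cort came nearest to missing detection on HC 2, with a signal of 85.9 there against a lowest detected signal of 85.5. Pomc, Vip, Tac1 and Cort each had 2 named probes, of which 1 was expressed, so these calls rest on the brighter probe.

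The other 18 precursors missed detection on at least 1 array. Grp, Gal and Tac2 were detected on 3 arrays and Crh and Avp on 2. Crh, corticotropin-releasing hormone, which the central amygdala is known to make, had signals of 62.7, 76.1, 74.1 and 87.8 and a percentile of 56.0 ± 8.05, inside the band where detection begins. Tac2, the neurokinin B precursor, had 65.1, 93.5, 73.1 and 86.1. Trh, Pmch and Nppc were detected on 1 array, and for each that array was HC 2. The 10 others, Rln3, Nmb, Ucn3, Nms, Nmu, Hcrt, Adm, Ucn, Kiss1 and Tac4, were detected on 0 arrays, and they include Hcrt and Kiss1, which hypothalamic neurons make. Ucn2, Agrp, Gnrh1, Calca and Nucb2 had no named probe and were not analysed here.

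**Figure D1:**
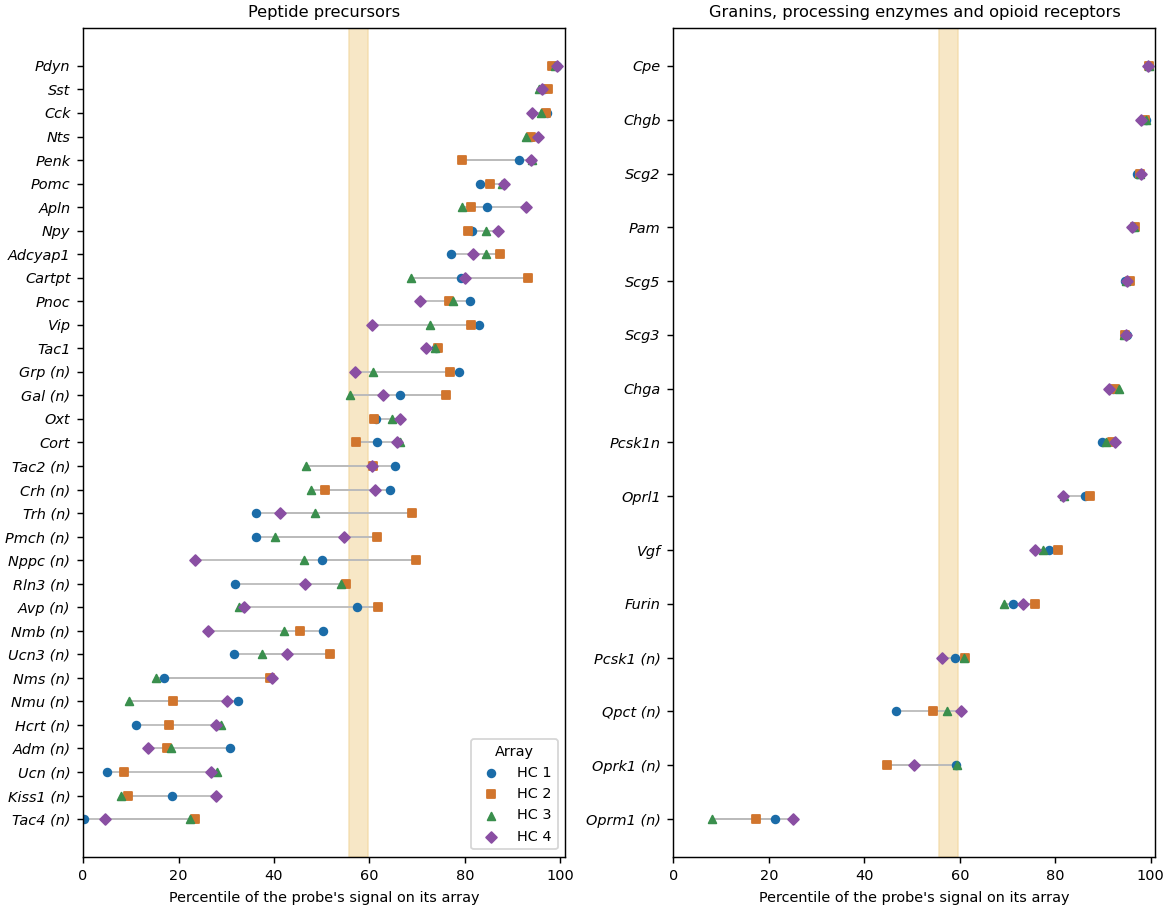
Percentile of signal (horizontal axis, rank among all probes of an array) of the brightest probe of each neuropeptide precursor (left) and of each granin, processing enzyme and opioid receptor gene (right), with a point per home-cage array. The shaded band spans the percentiles of 55.7 to 59.7 at which detection p reached 0.01 on the 4 arrays, and (n) marks genes that were not expressed. Pdyn, Sst, Cck and Nts lie together at the upper end on every array, while Cartpt, Vip and Penk spread widely.

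Of the genes that pack, cut and trim peptides 10 of 12 were expressed, or 83.3%, with a median percentile of 93.5. Cpe, carboxypeptidase E, which trims the cut ends of peptides, had signals of 2465, 3379, 3280 and 3018 and a percentile of 99.6 ± 0.0524. The granins that fill dense-core vesicles were bright, with Chgb at 98.7 ± 0.503, Scg2 at 97.6 ± 0.306, Scg3 at 94.7 ± 0.301 and Chga at 92.3 ± 0.875. Pam, the enzyme that amidates peptide ends, stood at 96.5 ± 0.247. Scg5, the chaperone 7B2 of a convertase, had 95.0 ± 0.457, and Pcsk1n, an inhibitor of convertase 1, had 91.2 ± 1.17. Vgf, a granin-like precursor, had 78.1 ± 2.01 and Furin, a convertase of the secretory route in all cells, had 72.3 ± 2.75. Pcsk1, which encodes convertase 1, was detected on 3 arrays with signals of 52.0, 94.6, 96.9 and 77.3. Qpct, which forms pyroglutamate ends, was detected on 2. Pcsk2 and Cpd had no named probe.

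The probes for receptors of opioid-like peptides differed in signal. Oprl1, the nociceptin receptor after which the series is named, was expressed by all 3 of its probes. Its brightest probe had signals of 227, 389, 256 and 228 and a percentile of 84.3 ± 2.94. The other Oprl1 probes stood at 76.7 ± 5.32, with signals of 147, 242, 132 and 160, and at 75.4 ± 8.01, with 66.4, 188, 160 and 294. The 3 probes ordered the arrays differently, since HC 2 was the brightest array for 2 of them and HC 4 for the other. Oprk1, the dynorphin receptor, was detected on 2 arrays, with signals of 52.5, 70.8, 93.5 and 70.2 and a percentile of 53.5 ± 7.17. Oprm1, the mu receptor for enkephalins and beta-endorphin, had 35.7, 58.6, 54.2 and 57.0, a percentile of 17.9 ± 7.24, and was detected on 0 arrays. Oprd1 had no named probe.

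Of 41 other peptide receptor and binding genes, 16 were expressed, or 39.0%, with a median percentile of 53.1, below the median of all genes. Sort1, the sorting receptor sortilin that also binds neurotensin, had signals of 2223, 2719, 2929 and 2791 and a percentile of 99.4 ± 0.127. Ntsr2, the neurotensin receptor known from astrocytes, had 90.2 ± 2.09, and Ntsr1, its neuronal counterpart, 70.3 ± 9.72. Crhbp, which binds and neutralizes corticotropin-releasing hormone, had 87.7 ± 2.69 with 353, 388, 414 and 278. The receptors Crhr1 and Crhr2 were detected on 0 arrays and 1 array. Adcyap1r1, the PACAP receptor, stood at 86.8 ± 1.38, Sstr2 for somatostatin at 79.6 ± 3.50 and Cckbr for cholecystokinin at 79.6 ± 3.19. Oxtr, the oxytocin receptor, reached 78.9 ± 6.10 with 118, 328, 261 and 129, and was brighter on HC 2 and HC 3.

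The tachykinin receptors Tacr3 and Tacr1 stood at 73.5 ± 5.87 and 73.1 ± 3.67, and Tacr2 was detected on 2 arrays. The neuropeptide Y receptors Npy2r and Npy1r had 73.0 ± 2.53 and 70.0 ± 7.13, while Npy5r was detected on 0 arrays. The rest of the expressed receptors were Trhr at 73.2 ± 5.98, Glp1r at 72.3 ± 8.55, Cckar at 72.1 ± 11.5 and Galr1 at 65.3 ± 2.73. Cckar ranged from percentile 60.9 on HC 1 to 84.4 on HC 4. Avpr1a, the vasopressin receptor, was the least even gene of the list, with 75.1, 127, 54.9 and 161, a percentile of 55.8 ± 30.8 and detection on 3 arrays. Rxfp3, Calcrl and Sstr4 were detected on 2 arrays and Rxfp1, Hcrtr2 and Mchr1 on 1. The other 14 were detected on 0 arrays. They were Mc3r and Mc4r, the melanocortin receptors, Galr2 and Galr3 for galanin, Sstr1, Sstr3 and Sstr5 for somatostatin, and Avpr1b, Vipr1, Grpr, Nmbr, Trhr2, Hcrtr1 and Calcr.

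Both fast transmitters were represented by bright probes. Gad2 and Gad1, which make GABA, had percentiles of 99.5 ± 0.195 and 98.9 ± 0.0949, and Slc32a1, which loads it into vesicles, had 99.4 ± 0.139. Gad2 signals were 2052, 2799, 3532 and 3669. Abat, which breaks GABA down, stood at 96.5 ± 0.189, and in this list 5 of 6 measured genes were expressed, all but the transporter Slc6a13, detected on 2 arrays. On the glutamate side Slc17a7, the vesicular transporter of cortical and basolateral neurons, had signals of 434, 491, 652 and 458 and a percentile of 91.3 ± 1.503. Slc17a6, the transporter of thalamic and hypothalamic neurons, had 214, 612, 743 and 568 and 90.8 ± 3.50. Slc17a8, the third of these transporters, was detected on 1 array. Slc1a2 and Slc1a3, by which astrocytes clear glutamate, stood at 99.1 ± 0.223 and 98.9 ± 0.157, and Glul, which turns it into glutamine, at 97.2 ± 0.416.

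Of the AMPA and kainate receptor subunits 8 of 9 were expressed. The AMPA subunits Gria1, Gria2 and Gria3 had 98.8 ± 0.452, 98.6 ± 0.384 and 98.6 ± 0.205, the kainate subunit Grik2 had 90.3 ± 2.05, and Grik3 missed detection on 1 array. NMDA receptor subunits were expressed in 3 of 6, namely Grin3a at 90.7 ± 0.921, Grin2b at 76.6 ± 4.18 and Grin2c at 60.6 ± 3.01. Grin2a was detected on 1 array, with 39.4, 83.2, 86.3 and 98.1, and Grin2d and Grin3b on 0, while Grin1, the subunit that every NMDA receptor needs, had no named probe. Among metabotropic receptors 4 of 6 were expressed, with Grm5 at 97.4 ± 0.164 and Grm7, by 1 of 4 named probes, at 94.8 ± 0.742. Grm3 stood at 90.8 ± 1.17 and Grm4 at 66.1 ± 8.62. Grm6, known from the retina, was detected on 0 arrays.

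Inhibitory receptors were likewise expressed in most measured genes. For GABA-A subunits 8 of 10 passed, with Gabrb2 at 95.5 ± 0.563, Gabra3 at 93.9 ± 0.563, Gabrg3 at 91.9 ± 1.22 and Gabrb1 at 91.0 ± 2.39. Gabra6, the subunit of cerebellar granule cells, was at 1.60 ± 1.04, with signals of 31.2, 47.6, 50.8 and 48.2. The GABA-B receptor genes Gabbr1 and Gabbr2 are counted with the glycine genes, of which 7 of 9 were expressed. Gabbr1 had 93.8 ± 0.437. Glra2, a glycine receptor subunit, had 92.1 ± 1.91 with signals of 378, 877, 490 and 579, Glrb, its partner, 90.05 ± 1.36, and Slc6a9, the glycine transporter of glia, 89.4 ± 2.36. Glra1 and Slc6a5, the receptor subunit and transporter known from brainstem and spinal cord, were detected on 0 arrays. Interneuron markers were expressed in 5 of 8. Reln stood at 95.9 ± 1.10, Lamp5 at 95.0 ± 1.25, the calcium buffers Calb2 and Pvalb at 93.8 ± 1.32 and 85.6 ± 2.03, while Calb1, Nos1 and Lhx6 were detected on 1, 2 and 3 arrays. Reln was expressed by 1 of 5 named probes and Lamp5 by 1 of 2.

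**Figure D2:**
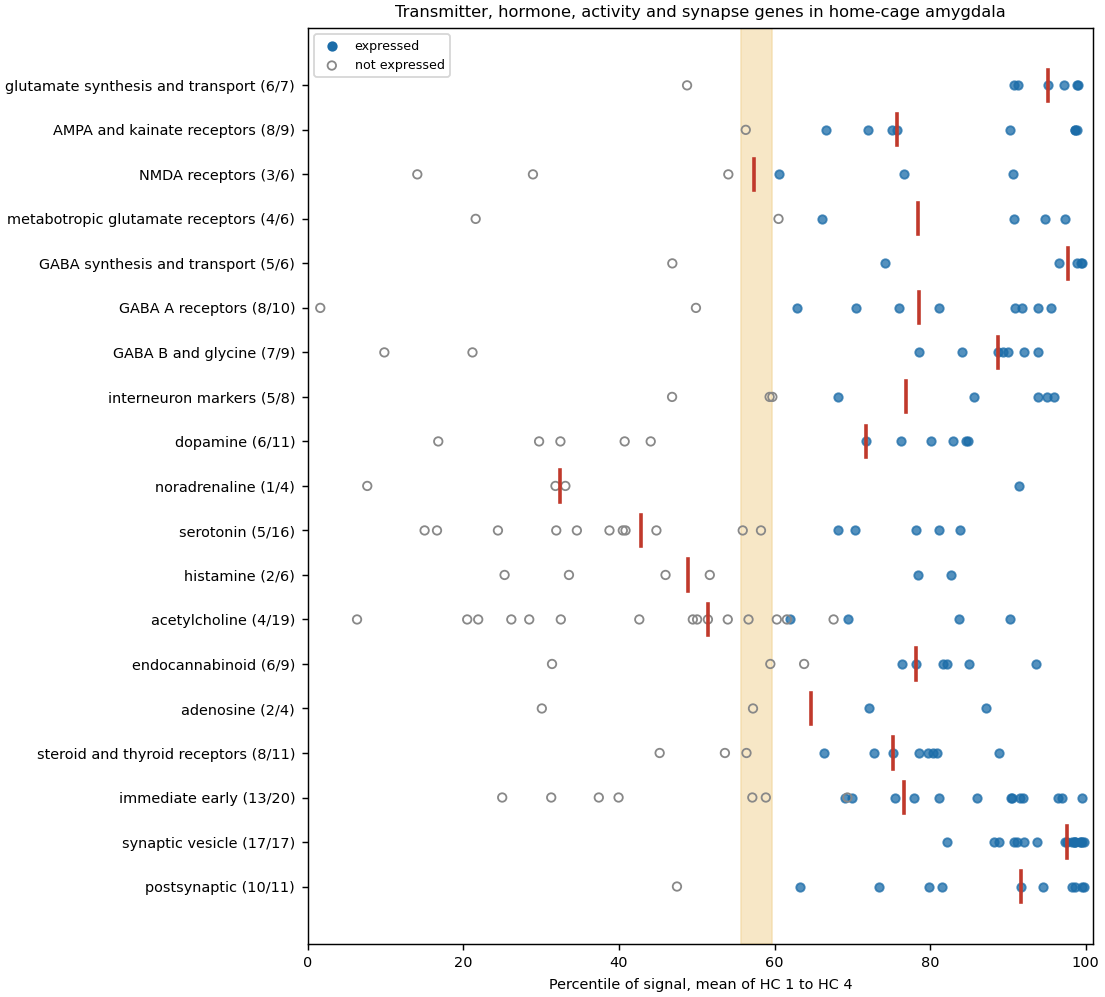
Mean percentile of signal over HC 1 to HC 4 (horizontal axis) of each measured gene in lists of transmitter, hormone, activity and synapse genes (vertical axis, with expressed over measured genes in brackets). Filled points are expressed genes, open points are not, red bars are list medians and the shaded band spans the detection thresholds of the 4 arrays. GABA synthesis, glutamate transport and synaptic vesicle genes lie at the right, and the medians of noradrenaline, serotonin, histamine and acetylcholine genes lie left of the band.

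Genes of the monoamine systems were split. Th, Dbh, Tph2 and the uptake transporters, which mark monoamine cell bodies in midbrain and brainstem, were not expressed, while Slc18a2, Ddc and Hdc were, along with several receptors. Ddc was expressed by 1 of 3 named probes and Hdc by 1 of 2, so these 2 calls rest on the brightest probe. Th, needed for dopamine and noradrenaline, had signals of 42.2, 59.9, 64.5 and 54.2 and a percentile of 29.7 ± 14.2. Dbh had 7.64 ± 6.63, the transporters Slc6a3 and Slc6a2 had 32.5 ± 4.37 and 33.1 ± 7.13, and the serotonin genes Tph2 and Slc6a4 had 15.01 ± 6.40 and 24.4 ± 16.7. All 6 were detected on 0 arrays. Among dopamine genes 6 of 11 were expressed, with the receptor Drd1 at 84.6 ± 3.18 and signals of 252, 270, 246 and 346. Slc18a2, the vesicular monoamine transporter, stood at 84.9 ± 5.11, Ddc, which forms dopamine and serotonin, at 82.9 ± 4.07 and Maob, which breaks amines down, at 80.2 ± 6.61. Drd3 and Drd5 were detected on 1 array each and Drd4 on 0.

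Of 4 measured noradrenaline genes 1 was expressed, the receptor Adra2c at 91.5 ± 0.817, with signals of 388, 520, 621 and 545. The alpha-1 receptor Adra1b was detected on 0 arrays, and 7 further adrenergic receptors had no named probe, so the adrenergic side was hardly measured. Serotonin genes were expressed in 5 of 16. The receptors Htr2c, Htr1b, Htr1d and Htr2a had 83.8 ± 2.29, 81.1 ± 4.60, 78.2 ± 7.29 and 70.4 ± 8.53. Htr2a ranged from percentile 57.8 on HC 1 to 76.5 on HC 3, and Htr6 was detected on 0 arrays. Htr2c and Htr2a were each expressed by 1 of 3 named probes. Of 6 histamine genes 2 were expressed, Hdc, the synthetic enzyme, at 82.7 ± 3.48 with 261, 232, 249 and 222, and the receptor Hrh3 at 78.5 ± 5.96. Hrh1, Hrh2, Hrh4 and Hnmt were detected on 0 arrays.

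Acetylcholine genes were expressed in 4 of 19, or 21.1%. They were the nicotinic subunits Chrnb2 at 90.3 ± 1.01, Chrna4 at 83.8 ± 6.53 and Chrna7 at 69.4 ± 7.38, and the muscarinic receptor Chrm1 at 61.9 ± 0.388. Chrna4 was lower on HC 4, at 150 against 300 to 361 on the others. The subunits Chrna5, Chrnb3 and Chrna6 were detected on 0 arrays. Chat, the enzyme of cholinergic neurons, was picked after its value was seen and was detected on 3 arrays, with 55.2, 75.2, 137 and 85.0. It was thus not expressed by the rule, at percentile 60.3. Slc5a7, Ache and Slc18a3 of the same list were not expressed either, at 54.0, 49.5 and 26.2. Endocannabinoid genes were expressed in 6 of 9. Faah, which breaks down anandamide, stood at 93.6 ± 3.44 with 757, 1182, 657 and 417, Mgll, which breaks down 2-arachidonoylglycerol, at 85.0 ± 1.23, and Cnr1, the neuronal cannabinoid receptor, at 82.2 ± 5.07. Cnr2, the receptor of immune cells, was detected on 0 arrays. Of 4 adenosine genes 2 were expressed, Adk, which removes adenosine, at 87.1 ± 2.17 and its transporter Slc29a1 at 72.1 ± 4.45, while the receptors Adora1, Adora2a and Adora2b had no named probe.

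Hormone receptors and their partners were expressed in 8 of 11. Insr, the insulin receptor, had 88.9 ± 1.63, Thrb, a thyroid hormone receptor, 80.9 ± 7.14, Fkbp5, a chaperone that lowers the hormone binding of the glucocorticoid receptor, 80.4 ± 2.62, and Nr3c2, the mineralocorticoid receptor, 79.7 ± 4.70. Esr1, the oestrogen receptor of the medial amygdala, had signals of 54.2, 221, 105 and 91.0, with HC 2 alone high. Esr1 was expressed by 1 of 4 named probes and Insr by 1 of 3. Esr2 and Thra were detected on 2 arrays and 1 array, and Lepr on 0.

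Genes known to be induced by neuronal activity were already expressed in these unconditioned mice in 13 of 20. Egr1, a transcription factor, had signals of 2978, 2987, 3646 and 3088 and a percentile of 99.6 ± 0.160. Egr3 had 96.5 ± 1.21, Homer1, a scaffold whose short form is activity-induced, 97.0 ± 0.560, and Dusp1, a phosphatase of MAP kinases, 92.0 ± 2.30. Npas4, Ier2 and Junb were detected on 0 arrays. Fos and Arc, picked after their values were seen, stood below the median of expressed genes, Fos at 70.0 ± 4.79 with 74.6, 111, 188 and 116, and Arc at 77.9 ± 5.57 with 194, 162, 150 and 211.

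All 17 measured synaptic vesicle genes were expressed, with a median percentile of 97.5 and none under 82.2. Syp, synaptophysin, had signals of 3281, 4063, 4591 and 4308, Syt1, the calcium sensor of release, had a percentile of 99.6 ± 0.129, Syn1 99.4 ± 0.129 and Vamp2, the vesicle SNARE, 99.2 ± 0.148. On the postsynaptic side 10 of 11 were expressed. Ppp3ca, a calcineurin subunit, had 99.8 ± 0.0205, Dlgap1, a scaffold, 99.5 ± 0.142, Camk2b, a calcium-dependent kinase, 98.6 ± 0.281 and Ppp1r9b, spinophilin, 98.3 ± 0.272. Shank2 was detected on 1 array.

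The labelled tissue was checked against markers of its cell types. All 10 neuronal markers were expressed, with a median percentile of 96.6. Thy1, a neuronal surface protein, stood at 99.7 ± 0.0478, Eno2 at 99.7 ± 0.0688, Map2 at 99.0 ± 0.527 and Stmn2 at 98.1 ± 0.350. Of 12 astrocyte markers 12 were expressed, with a median of 91.2. Gja1, a gap junction protein, had signals of 2925, 4144, 3575 and 3882, and Sox9, a transcription factor, had 656, 849, 1383 and 1519. Myelin genes were expressed in 10 of 11, with a median of 94.5. Mbp, Mobp, Cldn11 and Mal stood at 99.2 ± 0.266, 99.1 ± 0.320, 99.1 ± 0.273 and 98.9 ± 0.279, and Aspa was detected on 3 arrays. The mean log2 value of the measured myelin genes was 9.15, 9.06, 9.12 and 9.50 on the 4 arrays, highest on HC 4.

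Precursors of oligodendrocytes were represented by 7 of 8 genes, with Olig1 at 97.4 ± 0.675, Pdgfra at 96.3 ± 0.356, Gpr17 at 78.2 ± 2.34 and Neu4 at 75.9 ± 11.8. Olig2, which oligodendrocyte-lineage cells make together with Olig1, was detected on 0 arrays, with 38.9, 57.5, 55.3 and 58.3. Microglial markers were expressed in 9 of 11, with Aif1 at 93.5 ± 1.60, Tyrobp at 91.1 ± 1.90, P2ry12 at 89.1 ± 1.96 and Tmem119 at 83.1 ± 2.70. C1qa and Cx3cr1 were detected on 2 and 3 arrays. For endothelial cells 7 of 11 passed, with Slc2a1, the glucose transporter of the blood-brain barrier, at 95.6 ± 0.722 and Cldn5, a tight junction protein, at 93.4 ± 2.27. Kdr and Abcb1a were detected on 0 arrays. For mural cells 3 of 8 passed, Rgs5 at 91.9 ± 1.23, Vtn at 90.5 ± 1.91 and Acta2 at 89.1 ± 1.38, and Pdgfrb and Tagln were detected on 0.

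**Figure D3:**
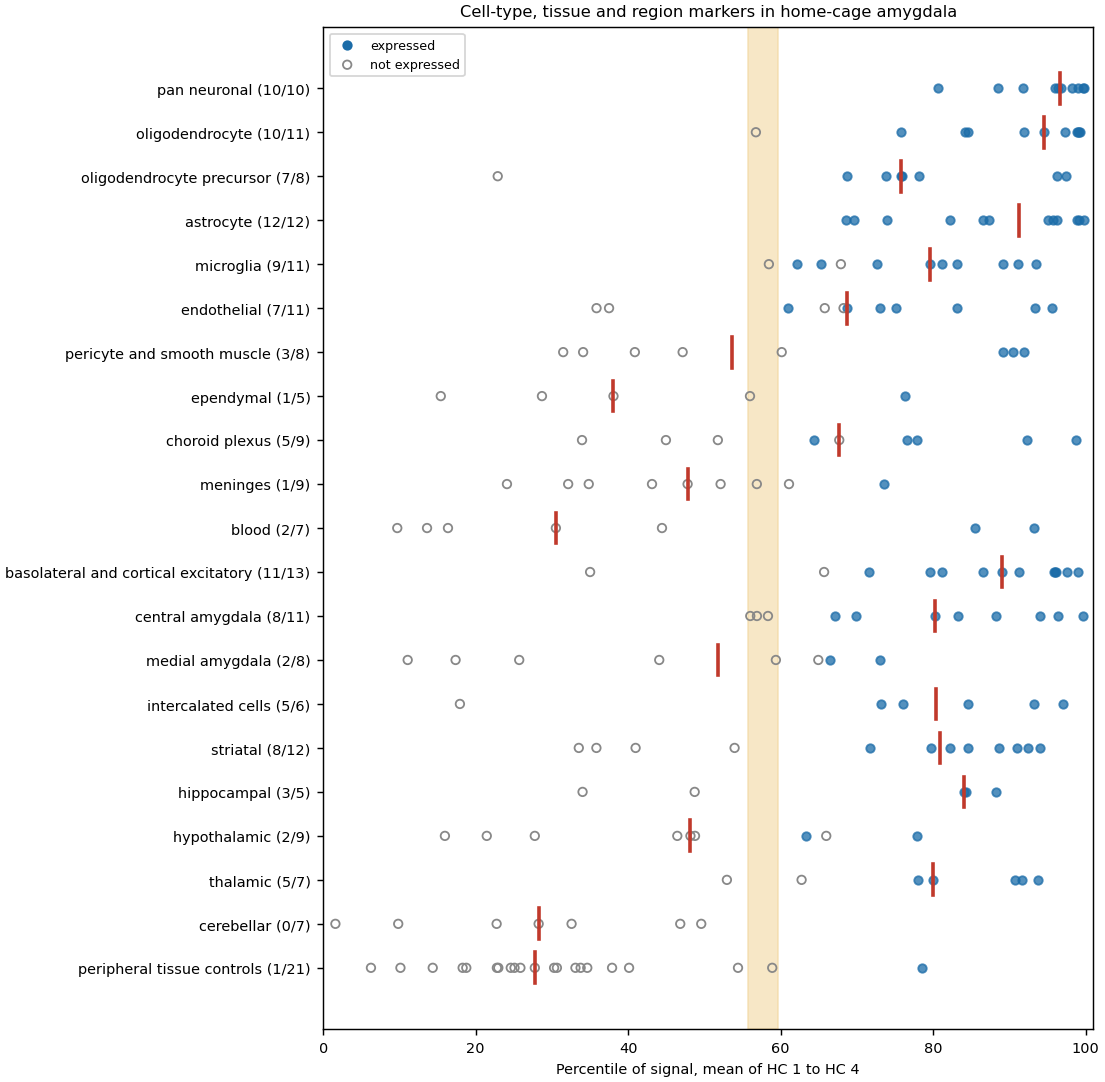
Mean percentile of signal over HC 1 to HC 4 (horizontal axis) of each measured marker of cell types, neighbouring tissues, brain regions and peripheral tissues (vertical axis, with expressed over measured genes in brackets). Filled points are expressed genes, open points are not, red bars are list medians and the band spans the detection thresholds. The neuronal, myelin and astrocyte medians lie at 96.6, 94.5 and 91.2, and the cerebellar and peripheral medians at 28.3 and 27.8.

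Some choroid plexus markers differed between arrays, and where in the punch their signal came from was not tested. Ttr, transthyretin, the most abundant transcript of the choroid plexus, had signals of 2329 and 3519 on HC 1 and HC 2 and of 353 and 267 on HC 3 and HC 4. Aqp1, a water channel of the same tissue, had 236, 718, 160 and 54.5, and was detected on 3 arrays. The choroid plexus transcription factor Otx2 and the channel subunit Kcne2 were detected on HC 1 and HC 2 alone, and Folr1 on HC 2 alone. The mean log2 value over the 9 measured choroid plexus genes was 7.46, 7.89, 6.44 and 6.18. The brightest probe of Kl, klotho, did not follow this order, with 1256, 2195, 2372 and 1935, while its other probe did on the log2 scale, with 4.98, 5.59, 4.69 and 4.35, but was detected on 1 array. In the list 5 of 9 were expressed, Kl, Ttr, Sostdc1, Col8a1 and Clic6. The part that choroid plexus has in other values of HC 1 and HC 2 was not tested. Meningeal genes were expressed in 1 of 9, Igf2 at 73.6 ± 6.93, and ependymal genes in 1 of 5, Rarres2 at 76.3 ± 5.26. The haemoglobin genes Hbb-bt and Hba-a1 stood at 93.3 ± 1.03 and 85.5 ± 1.29, and the 5 other blood genes were detected on 0 arrays.

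Markers of the amygdala nuclei were expressed to different extents. Of 13 genes of basolateral and cortical excitatory neurons 11 were expressed, with Lmo3 at 99.0 ± 0.209, Neurod6 at 97.5 ± 0.820, Nrn1 at 96.1 ± 1.59 and Mef2c at 95.9 ± 1.30, while Emx1, known from cortex, was detected on 0 arrays. Of 11 central amygdala genes 8 were expressed, at percentiles from 67.1 to 99.6. The exceptions were Tac2, Calcrl and Crh, at 58.3, 56.9 and 56.0. Wfs1, wolframin, had signals of 3042, 3305, 3449 and 3205 and a percentile of 99.6 ± 0.110, and Dlk1 had 88.2 ± 1.76. For the intercalated cells 5 of 6 genes were expressed, Meis2 at 97.0 ± 1.09, Tshz1 at 93.2 ± 0.517, Drd1, and Pax6 at 76.1 ± 6.60 among them, and Oprm1 was the exception. Medial amygdala genes were expressed in 2 of 8, Npy2r and Esr1. Ecel1 and Lhx6 were detected on 3 arrays, Lhx9 on 1, and Sim1, Otp and Lhx5 on 0.

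Some markers known from the neighbouring regions were also expressed, and whether tissue of those regions was in the punch was not tested. Striatal genes were expressed in 8 of 12, with Pde1b at 94.1 ± 1.76, Ppp1r1b at 92.5 ± 3.97 with 699, 372, 703 and 772, Bcl11b at 91.0 ± 3.27 and Pde10a at 88.6 ± 4.01 with 439, 294, 374 and 501. Ppp1r1b and Pde10a were lowest on HC 2, and the mean log2 value of the striatal genes was 7.35, 6.64, 6.82 and 7.25. Many of them also mark the central amygdala and the intercalated cells, so these values do not separate the regions. Of 5 hippocampal genes 3 were expressed, Spink8 at 88.3 ± 2.69, Fibcd1 at 84.3 ± 4.51 with 140, 534, 292 and 246, and Prox1 at 84.0 ± 4.37. Of 9 hypothalamic genes 2 were expressed, Gpr165 at 77.9 ± 6.00 and Oxt, a share of 22.2% that lies below the background of 44.7%. Of 7 thalamic genes 5 were expressed, among them Rora at 91.7 ± 0.953 and Tcf7l2 at 80.0 ± 3.08. Rora was expressed by 1 of 2 named probes and Tcf7l2 by 2 of 6. Calb2 and Slc17a6, also expressed in this list, are counted above as an interneuron marker and a glutamate transporter too. The striatal, hippocampal and thalamic shares of 66.7%, 60% and 71.4% lay above the background of 44.7%, over few genes each. Of 7 cerebellar genes 0 were expressed, and the list had a median percentile of 28.3.

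Genes of organs outside the brain served as negative controls. Of 21 measured, 1 was expressed, the keratin gene Krt5, with 73.6, 178, 294 and 315 and a percentile of 78.5 ± 8.20. Alb, the liver's albumin gene, stood at 18.3 ± 11.4, Ckm of muscle at 10.1 ± 9.86 and Fgb of liver at 6.27 ± 4.04. The median of the list was 27.8. Gene families picked by their symbols, after the values had been seen, span the same range. Odorant receptor genes were expressed in 6 of 1078, or 0.557%, vomeronasal receptor genes in 2 of 168, Hox genes in 0 of 39, beta-defensin genes in 0 of 42 and interferon genes in 0 of 15. Complex I subunits were expressed in 34 of 35, cytosolic ribosomal proteins in 57 of 62, proteasome subunits in 33 of 40 and Rab genes in 41 of 59. Potassium channels at 37 of 75, zinc finger genes at 137 of 304 and solute carriers at 131 of 327 lay near the share of all genes, and voltage-gated sodium channels passed in 8 of 10.

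The 20 brightest named genes stood at percentile 99.92 or above. They include Rpl23, a ribosomal protein, Tuba1a and Tubb2b, which form microtubules, Calm2, which encodes calmodulin, Rab2a, a trafficking GTPase, Psap, a lysosomal precursor, and Eif4a2, a translation factor. Gpm6a and Ndrg2 encode proteins of neurons and astrocytes, Fth1 stores iron, Ckb buffers ATP and Cdk5r1 activates the neuronal kinase Cdk5. Capza2, which caps actin filaments, Atp6ap1, a proton pump accessory, Rchy1, a ubiquitin ligase, and Terf2ip, a telomere protein, were also in this set, with Aatk, Nme7 and Erich5. The brightest of these 20 by mean percentile was Ctcfl, which is known from the testis and has 1 named probe, with signals of 9771, 17135, 19938 and 18611. Names rest on the platform annotation, and whether the Ctcfl, Rchy1, Erich5 and Terf2ip probes read those genes was not tested, so these are signals of probes assigned to them. Other probes of these genes often ranked much lower. The 2 other Rchy1 probes stood at 77.5 ± 3.24 and 45.5 ± 24.5, the other Erich5 probe at 49.1 ± 11.9, and the 3 other Terf2ip probes at 79.4 to 86.3. Across the 5344 expressed genes with several probes, every probe was expressed in 1703, and the median range of percentile between probes of a gene was 32.1 points. Of the 100 brightest probes 25 had no gene name here, and 2312 of 10396 unnamed probes were expressed.

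Spread between arrays was taken over expressed probes, so genes that missed detection on an array were not ranked here. Aqp1, left out by this rule, had an SD of 2.10. The SD of the normalized log2 value over the 4 arrays had a median of 0.31 among expressed probes, and 141 of 15337, or 0.919%, exceeded 1. The 12 expressed named genes of widest spread were led by Ttr with an SD of 2.10. Scn4b, a sodium channel subunit of striatal and central amygdala neurons, had 505, 95.1, 364 and 530 and an SD of 1.71, and was low on HC 2 alone. Isg15, an interferon-induced gene, had 50.9, 88.6, 136 and 493 and an SD of 1.65, and was high on HC 4 alone. Spint1, a protease inhibitor of epithelia, had 129, 498, 135 and 995 and an SD of 1.57. Kif22, a mitotic kinesin, had 111, 228, 91.7 and 504, and Zfp987 had 107, 105, 427 and 409. Pot1a, a telomere protein, and Rfc1, a replication factor, were low on HC 4, with 90.4 against 234 to 386 and 132 against 410 to 744. Inppl1 had 136, 99.9, 129 and 438, Pex5l 119, 465, 267 and 85.6, and Clec10a 51.4, 410, 127 and 132. With Cartpt these 3 had SDs of 1.30, 1.30, 1.28 and 1.28 in the order Inppl1, Pex5l, Clec10a and Cartpt. All these values are of the brightest probe. The next brightest probes of Cartpt, Inppl1 and Zfp987 had SDs of 1.46, 1.25 and 1.27. Their dimmest probes, for Inppl1 and Zfp987, were not expressed and had 0.25 and 0.036. The other probes of Scn4b, Spint1 and Pex5l had 0.24, 0.15 and 0.50, and those of Scn4b and Spint1 were not expressed. The other Pot1a probe, not expressed, had 0.99 and was highest on HC 3. In 8 of the 12 genes 1 array carried much of the spread. Without HC 2 the SD was 0.59 for Scn4b, 0.65 for Cartpt and 0.60 for Clec10a. Without HC 4 it was 0.59 for Isg15, 0.06 for Pot1a, 0.49 for Rfc1, 0.83 for Inppl1 and 0.75 for Pex5l.

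**Figure D4:**
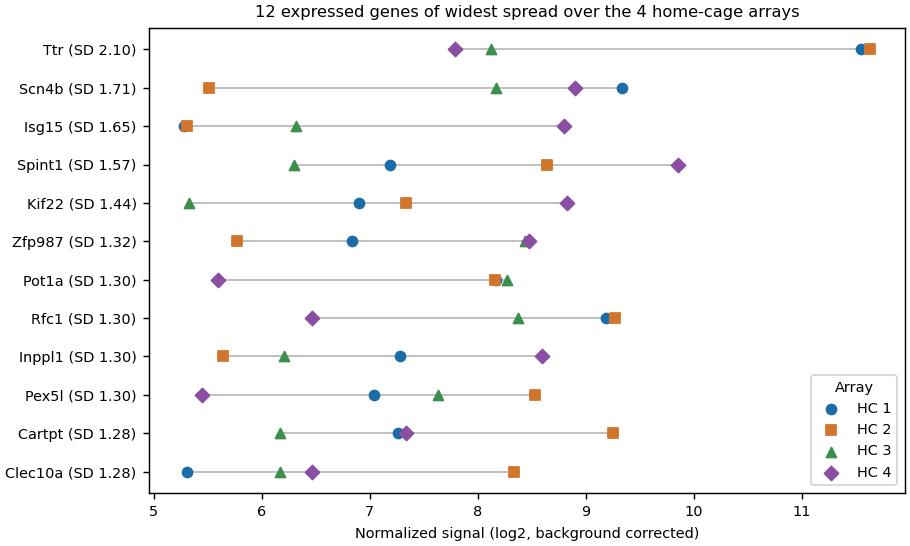
Normalized log2 signal (axis on a log2 scale) of the 12 expressed genes with the largest SD over HC 1 to HC 4, with a point per array. Ttr splits HC 1 and HC 2 from HC 3 and HC 4, Scn4b is low on HC 2, and Isg15 is high on HC 4.

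Start regions of expressed genes were richer in CG dinucleotides. A region was called CpG-rich where its observed over expected CG ratio was at least 0.6 and its GC content at least 50%, a feature chosen after the values were seen. Of 15237 genes with a start region in RefSeq, 49.5% were CpG-rich, with 72.3% of the 6906 expressed genes and 30.7% of the 8331 others. With the genes ordered by percentile and cut into 5 equal bins, the share was 14.3%, 29.8%, 57.1%, 72.2% and 74.2% from the dimmest to the brightest. TATAAA on either strand was found in 12.5% of all regions, in 6.92% of expressed and 17.1% of other genes. TGACGTCA, which reads the same on both strands, was found in 2.47% of all regions, in 3.55% of expressed and 1.58% of other genes. The motifs do not overlap each other in letters, and CG lies inside TGACGTCA. These shares cover genes that differ in many ways, and no test was made.

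Start regions of both kinds were found among bright genes and among others. Of the 6 regions printed above, Pdyn, Cck, Nts and Hcrt fell below the limit on the CG ratio, and Sst and Tac1 passed both limits. Among peptide precursors 10 of 29 start regions were CpG-rich, with 5 of 13 for the expressed ones and 5 of 16 for the others. Of the 29 regions, 3 held TGACGTCA and 6 held TATAAA. Myelin genes were CpG-rich in 3 of 10, although 10 of 11 measured were expressed. Synaptic vesicle genes were CpG-rich in 11 of 15, granin and processing genes in 5 of 9, and the peripheral control genes in 0 of 18.

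**Figure D5:**
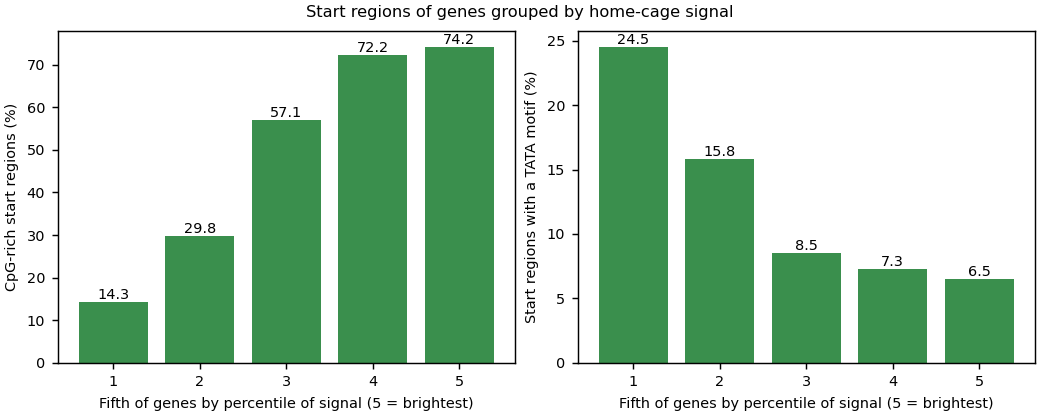
Share of start regions (vertical axes, percent) that were CpG-rich or held a TATA motif, in 5 equal bins of genes ordered by mean percentile of signal in home-cage amygdala (horizontal axis). The CpG-rich share rises from 14.3% to 74.2% and the TATA share falls from 24.5% to 6.46%.

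Calls near the threshold were close. The 3 genes just inside it, Inka1, Tecpr1 and Rcsd1, had a highest detection p of 0.00962 and mean percentiles of 59.1, 58.8 and 58.1. Just outside it, Trim36, Tox3 and Zbtb26 had percentiles of 75.3, 75.1 and 75.1 and missed detection on HC 4 alone, at a detection p of 0.0107, with signals there of 82.7, 82.5 and 83.7 against 119 to 294 on the other arrays. A gene that is not expressed by this rule can therefore still be bright on 3 arrays.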

How the data were processed

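Per the labels' protocols, the RNeasy Mini kit (Qiagen) gave total RNA from the punches, and MessageAmp (Ambion) gave biotinylated RNA for Illumina bead arrays. Per the file headers, the authors deposited an unnormalized signal intensity and a detection p-value per probe and array, and a table of normalized intensity whose method is not given in the sources used here. All 4 home-cage arrays were used, and 0 value columns were left out. Ranks and detection calls come from the unnormalized signals (Python 3.11.15, pandas 2.3.3). For log2 values and their SD, the deposited intensities of these 4 arrays alone were background corrected and quantile normalized with neqc of limma 3.58.1 in R 4.3.3, offset 16. Gene names come from GEO's platform annotation, updated through gene IDs to RefSeq: 34885 probes had 1 symbol, 18 several and 10378 none.

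No test between groups was made. The members and lists were chosen with earlier results of these data known. Genes named are the 20 brightest, every member of the peptide lists, in other lists up to 4 brightest expressed members and up to 6 that were not expressed (the 3 dimmest where there were more), the 12 of widest spread and 3 on each side of the threshold. Predicted and RIKEN transcripts were passed over outside the lists. Chat, Slc5a7, Ache, Slc18a3, Fos and Arc were picked after their values were seen, as were the families and the start-region features. Alternatives were other detection rules, any or every probe of a gene, other normalizations and leaving out each array. With 4 arrays, their number limits the precision.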

Additional observations from a re-analysis of the deposited data

Results flagged for a closer look

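A gene or list was looked at again where the highest or the lowest of the 4 arrays stood apart from the others by a share of the whole range above Dixon's 95% critical value for 4 samples. Of 244 genes and lists tested, 10 met this, or 4.10%, and chance flags about 1 in 20. HC 1 was the array apart in 4 of them and each other array in 2.

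The values are normalized log2 signals, with the gap as a share of the range. Ctcfl was lower on HC 1 (13.78 against 14.01, share 1). The probe held the same rank on the other 3 arrays, so quantile normalization gave it the same value there. Ckb was higher on HC 1 (12.72 against 12.37 to 12.42, share 0.86), as were Hdc (8.33 against 7.38 to 7.50, share 0.87) and Gpr17 (7.53 against 6.96 to 7.04, share 0.865). On HC 2, Rgs5 was lower (8.65 against 9.07 to 9.12, share 0.894) and Esr1 higher (7.29 against 5.43 to 5.69, share 0.86). On HC 3, Ddc was lower (6.99 against 7.87 to 8.03, share 0.838), and so was the mean of the oligodendrocyte precursor genes (7.03 against 7.39 to 7.45, share 0.862). On HC 4, Camk2b was lower (10.62 against 10.88 to 10.91, share 0.902), and Pot1a was lower by far more (5.59 against 8.16 to 8.27, share 0.958). The largest of these gaps in log2 units were those of Pot1a and Esr1.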

How the results depend on the processing

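No paired analysis was possible because the results come from no test and no groups were compared. The probe that stands for a gene mattered most. Where every probe of a gene had to pass, 4874 genes in place of 8515 and 159 list genes in place of 259 were expressed. With the median over a gene's probes, the median percentile of expressed genes was 75.7 in place of 84.8, and 122 of the 342 named genes moved by more than their SD. A detection p under 0.05 gave 17498 probes, 9433 genes and 278 list genes, and detection on at least 3 of 4 arrays gave 17852, 9579 and 284. Without 1 array the ranges were 15753 to 16507 probes, 8677 to 9037 genes, 260 to 269 list genes, 84.8 to 85.0 for the median percentile and 0.27 to 0.30 for the median SD. Leaving out HC 4 gave the most genes, and of the named genes it added Aqp1, Cx3cr1, Grp, Itm2a, Napepld, Pcsk1, Tox3, Trim36 and Zbtb26. With no detection filter the median SD was 0.20 in place of 0.31. The mean Pearson r of log2 signal between arrays was 0.965 in place of a mean Spearman rho of 0.886. Percentiles on the authors' normalized table differed by at most 0.000276 points. A normalization that keeps the order of signals on an array cannot change ranks, so this comparison does not test them. Of the 12 genes of widest spread, 5 were in the first 12 without HC 2 and 5 without HC 4. Signal over background limits the precursors and receptors that lie between the percentiles of 55.7 and 59.7, where detection begins.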
